A study of Mus with 21 samples.

Results

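The oligodendrocyte lineage was followed through 9 genes chosen by name to run from the precursor cell to the myelinating cell: *Olig1*, *Olig2*, *Nkx2-2*, *Sox10*, *Pdgfra*, *Cspg4*, *Cnp*, *Mbp* and *Mog*. All 9 were found among the 55335 genes of the deposited table, and all 9 were among the 30552 genes tested. The study asked whether a lower dose of *Wapl*, which takes cohesin rings off DNA, alters the effects of a lower dose of *Nipbl*, which loads them. Poly(A) RNA from the brains of female embryos at E17.5 was sequenced, with 1 library for each embryo. The 21 libraries came from 5 WT embryos (*Wapl* +/+ and *Nipbl* +/+), 7 *Wapl* Δ/+ embryos with both *Nipbl* alleles intact, 3 *Nipbl* +/− embryos with both *Wapl* alleles intact, and 6 double heterozygotes that carry both deletions.

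Both deletions are present in the whole body and in no sense restricted to glia. The *Wapl* Δ allele lacks the promoter and the first exons and was made with the E2a-Cre transgene. The *Nipbl* deletion was made in the germ line of the sires with the Stra8-icre transgene. The paper describes different crosses, with the *Wapl* deletion carried by the dam or by the sire. The labels name neither the cross, nor the litter, nor whether an embryo inherited the Stra8-icre transgene. Embryos of different crosses may thus be mixed within and between groups, and P values measure the spread between these embryos only. Because whole brains were used, fewer cells of a type and less RNA per cell cannot be told apart.

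Oligodendrocyte precursors arise from ventricular progenitors, migrate through the brain and divide there before they stop dividing and wrap axons in myelin. The transcription factors OLIG1, OLIG2, NKX2-2 and SOX10 specify the lineage and drive its maturation. The receptor PDGFRA, which binds the mitogen PDGF-A, and the proteoglycan NG2, the product of *Cspg4*, mark the precursor. CNP, MBP and MOG are myelin proteins, and in the mouse most myelin forms after birth.

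The libraries held between 25682566 and 35818767 counts on genes. *Wapl* stood at 47.2% ± 4.42 (SD, n = 7) of the WT level in *Wapl* Δ/+ brains and at 49.9% ± 1.75 (SD, n = 6) in double heterozygotes. *Nipbl* stood at 55.2% ± 4.25 (SD, n = 3) of the WT level in *Nipbl* +/− brains and at 55.4% ± 1.80 (SD, n = 6) in double heterozygotes. The mitochondrial gene *mt-Nd3* splits the libraries into a set with 0 to 6 counts and a set with 52 to 106 counts. The high set holds 2 of the 5 WT, 5 of the 7 *Wapl* Δ/+, 0 of the 3 *Nipbl* +/− and 2 of the 6 double-heterozygote libraries. In every library with the *Wapl* deletion the set goes with the order in which its label writes the *Wapl* alleles, so the set and that order cannot be told apart, and values of the 9 genes within each set are given beside each comparison of a pair of groups.

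All 9 genes were counted in every library, with between 143 counts (*Nkx2-2*) and 2757 counts (*Pdgfra*) in a library. Levels are given as CPM, the count scaled to the TMM-normalized size of the library, and are not corrected for transcript length, so levels of different genes were not compared. Several genes of mature oligodendrocytes were at the edge of detection. *Opalin* had 0 to 3 counts in a library, *Mobp* had 1 to 18, *Hapln2* had 3 to 24 and *Fa2h* had 6 to 25, and 7 of 20 genes of a list for mature oligodendrocytes averaged below 1 CPM. *Mog*, which is usually read as a late marker, had 449 to 808 counts in the same libraries. *Mbp* also gives rise to Golli transcripts outside the oligodendrocyte, and counts per gene do not separate these from myelin *Mbp*.

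**Figure D1:**
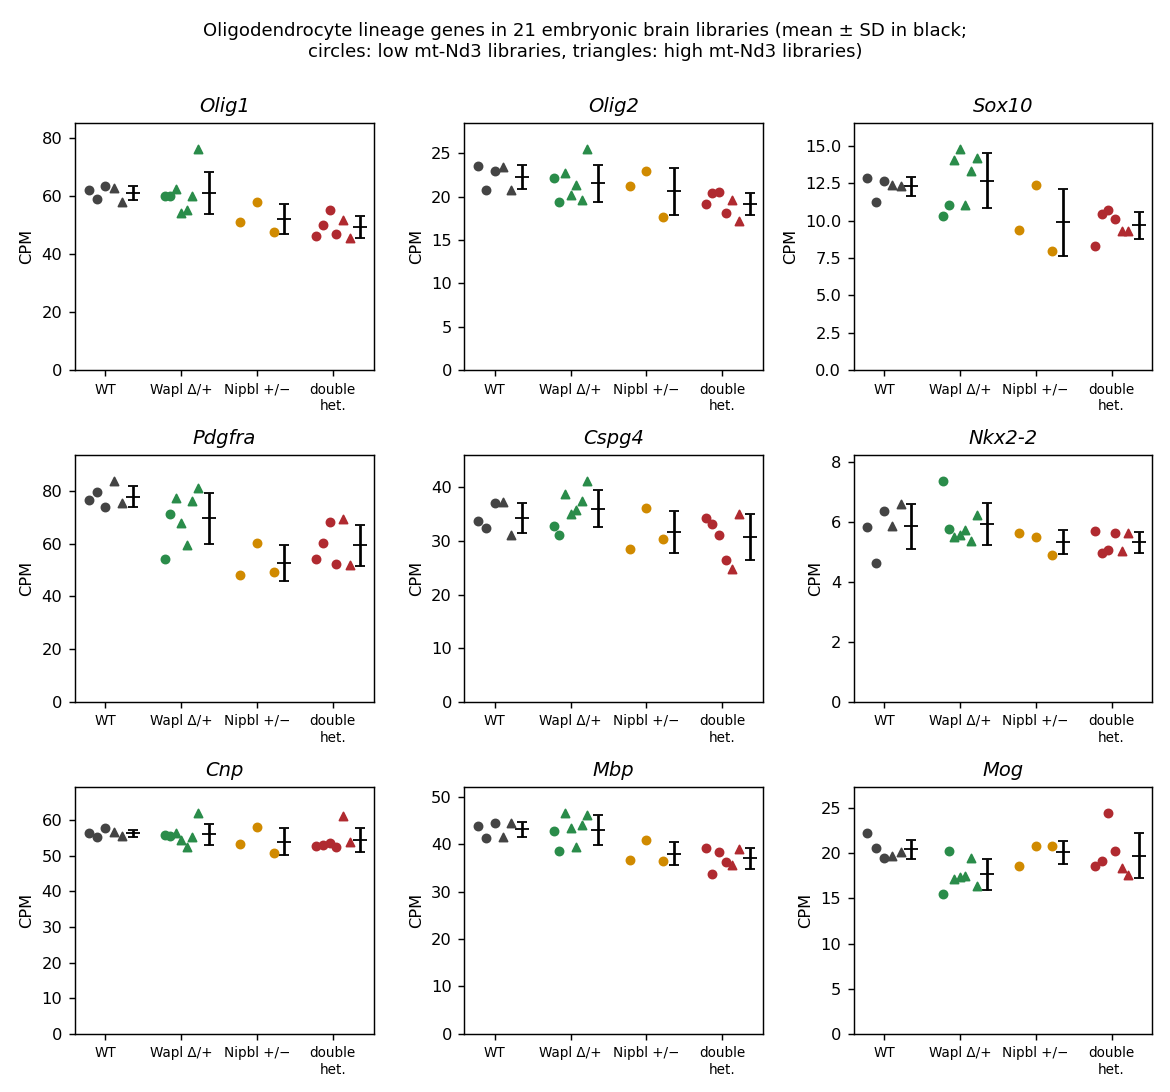
Levels of the 9 oligodendrocyte lineage genes, in CPM (linear axes from 0), in each of 21 brain libraries, grouped as WT, *Wapl* Δ/+, *Nipbl* +/− and double heterozygote (double het.); each point is 1 embryo, circles and triangles mark libraries with low and high *mt-Nd3* counts, and the black bars give the group mean ± SD. *Pdgfra* fell from a mean of 77.9 CPM in WT to 52.6 in *Nipbl* +/− brains. The range of each mutant group overlaps that of WT for *Cspg4*, *Nkx2-2*, *Cnp* and *Mog*. Ranges also overlap for *Olig2* and *Sox10* in *Nipbl* +/− brains, and for all 9 genes in *Wapl* Δ/+ brains.

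The first comparison set *Nipbl* +/− brains against WT. In the mutant 4 of the 9 genes fell and 0 rose: *Pdgfra*, *Olig1*, *Sox10* and *Mbp*. A gene was called when its Benjamini-Hochberg adjusted P in edgeR's quasi-likelihood test was below 0.10, and by that rule 11.2% of all tested genes were called and 6.96% were called lower. Among the 13102 genes with a mean level at or above that of the lowest of the 9, 12.9% were called lower. All 9 log2 fold changes were below zero, with a median of -0.16, against a median of -0.01 for all tested genes.

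*Pdgfra*, the receptor through which PDGF-A keeps precursors dividing, had the largest decrease. Its level was 76.5, 79.7, 73.9, 83.8 and 75.6 CPM in the WT libraries and 48.2, 60.4 and 49.1 CPM in the *Nipbl* +/− libraries. The groups do not overlap, and the mutant mean was 67.5% of WT. The log2 fold change was -0.60 (SE 0.0628, adjusted P = 3.94e-05, edgeR), and it stayed between -0.71 and -0.53 when any 1 library was left out. Against the 3 WT libraries of the low *mt-Nd3* set alone *Pdgfra* was at -0.58 (edgeR adjusted P = 0.0016).

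Among the transcription factors, *Olig1* and *Sox10* fell. *Olig1* had 62.2, 58.9, 63.5, 62.8 and 58.0 CPM in WT and 50.9, 57.9 and 47.6 CPM in *Nipbl* +/− brains, so each mutant library lay below each WT library, 1 of them by a narrow margin. Its log2 fold change was -0.26 (SE 0.0539, adjusted P = 0.00586, edgeR). *Sox10*, which acts downstream of OLIG2 and is needed for myelin gene expression, had 12.9, 11.3, 12.7, 12.4 and 12.3 CPM in WT and 9.36, 12.4 and 7.98 CPM in the mutants. Of the 3 mutant libraries, 2 were below every WT library and replicate 2 was inside the WT range. The *Sox10* log2 fold change was -0.34 (SE 0.102, adjusted P = 0.0482, edgeR). That call was lost without WT replicate 1 (adjusted P = 0.122), *Nipbl* +/− replicate 1 (0.201) or *Nipbl* +/− replicate 3 (0.280), and within the low *mt-Nd3* set (0.167), where *Olig1* remained called at -0.27 (0.0321, all edgeR). With all 4 groups in one fit neither was called, *Olig1* at -0.23 (edgeR adjusted P = 0.131) and *Sox10* at -0.31 (0.163).

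*Olig2*, the factor without which the lineage is not specified, was 22.3 ± 1.39 CPM (SD, n = 5) in WT and 20.6 ± 2.69 (SD, n = 3) in *Nipbl* +/− brains, a log2 fold change of -0.14 with a 95% interval from -0.29 to 0.01 (edgeR adjusted P = 0.284). *Nkx2-2*, which promotes the exit from the precursor state, was 5.85 ± 0.761 CPM (SD, n = 5) against 5.33 ± 0.394 (SD, n = 3), with an interval from -0.39 to 0.07. *Cspg4* was 34.3 ± 2.76 CPM (SD, n = 5) against 31.6 ± 3.95 (SD, n = 3), with an interval from -0.30 to 0.00. None of the 3 passed the test, and for *Olig2* and *Cspg4* the highest mutant library was replicate 2.

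Of the 3 myelin genes *Mbp* was called, and no test set them against each other. *Mbp* had 43.9, 41.3, 44.5, 41.6 and 44.5 CPM in WT and 36.8, 40.9 and 36.5 CPM in *Nipbl* +/− brains, with no overlap and a log2 fold change of -0.21 (SE 0.0486, adjusted P = 0.0108, edgeR). It was at -0.22 within the low *mt-Nd3* set (edgeR adjusted P = 0.0527) and at -0.18 with all 4 groups in one fit, where the call was lost (0.106). *Cnp*, an enzyme of uncompacted myelin that is made early in the lineage, was 56.3 ± 1.02 CPM (SD, n = 5) against 54.0 ± 3.72 (SD, n = 3), with a 95% interval from -0.18 to 0.00. *Mog*, a protein of the outer myelin surface, was 20.4 ± 1.08 CPM (SD, n = 5) against 20.1 ± 1.33 (SD, n = 3), with an interval from -0.19 to 0.07, and neither passed the test. Within the low set the 5 genes that were not called lay between -0.16 and -0.09. Groups without overlap and lower in the mutant were found for 3 of the 9 genes, *Olig1*, *Pdgfra* and *Mbp*, and for 5.59% of all tested genes. *Nipbl* +/− replicate 2 was the highest mutant library for *Olig1*, *Olig2*, *Sox10*, *Pdgfra*, *Cspg4*, *Cnp* and *Mbp*, and without it 7 of the 9 genes were called, with *Olig2* at -0.23 (adjusted P = 0.0487), *Cspg4* at -0.25 (0.0162) and *Cnp* at -0.15 (0.0281, all edgeR). In that fit 15.7% of all tested genes were called.

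**Figure D2:**
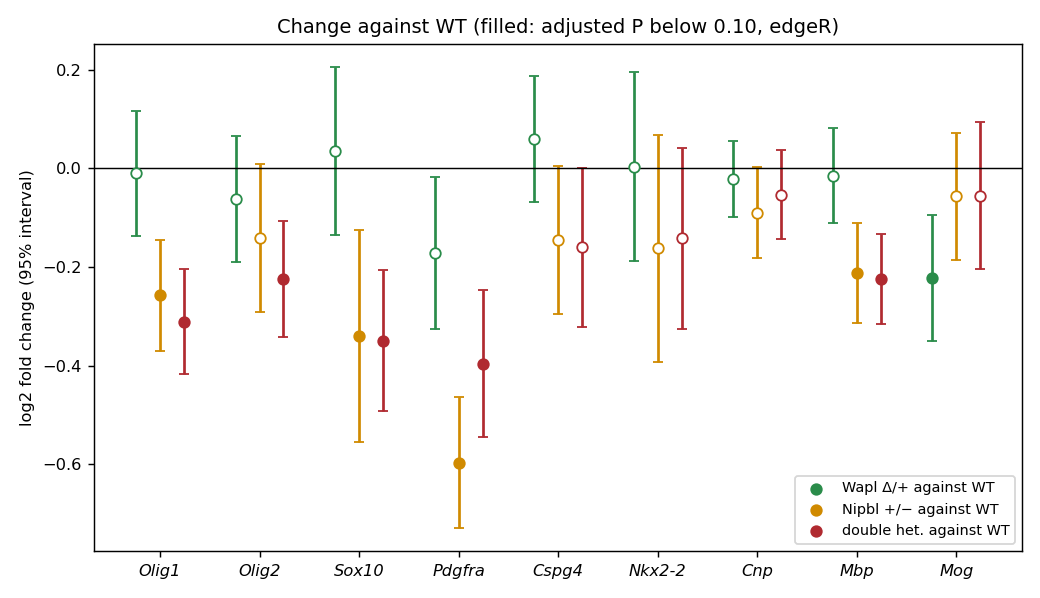
Log2 fold changes of the 9 genes against WT in *Wapl* Δ/+, *Nipbl* +/− and double-heterozygote (double het.) brains; bars are 95% intervals and filled points have an edgeR adjusted P below 0.10. In *Nipbl* +/− and double-heterozygote brains all 9 values lie below zero, with the largest decrease for *Pdgfra*, and in *Wapl* Δ/+ brains *Mog* alone is filled.

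The same genes were then examined in *Wapl* Δ/+ brains. Of the 9 genes, 1 was called, *Mog*, and it was lower. By the same rule 2.22% of all tested genes were called and 1.45% were called lower. Of the 9 log2 fold changes 6 were below zero and their median was -0.02, and for 0 of the 9 did every *Wapl* Δ/+ library lie below every WT library, as it did for 0.389% of tested genes.

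*Mog* ranged from 15.5 to 20.3 CPM in the 7 *Wapl* Δ/+ libraries, with a median of 17.4, and had 22.2, 20.6, 19.5, 19.7 and 20.1 CPM in WT. Of the 7 libraries, 5 lay below every WT library. The log2 fold change was -0.22 (SE 0.0614, adjusted P = 0.0919, edgeR). The value stayed between -0.26 and -0.19 when any 1 library was left out, but the call was lost without WT replicate 1, 2, 4 or 5 or *Wapl* Δ/+ replicate 1, 3, 4, 5 or 7 (edgeR adjusted P up to 0.243). The difference was -0.24 within the low *mt-Nd3* set and -0.19 within the high set, with adjusted P of 0.403 and 0.510 (edgeR).

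*Pdgfra* ranged from 54.4 to 81.0 CPM in the *Wapl* Δ/+ libraries, with a median of 71.4, and 4 of the 7 were below every WT library. Its log2 fold change of -0.17 did not pass the test (95% interval from -0.33 to -0.02, edgeR adjusted P = 0.263). It was -0.31 within the low *mt-Nd3* set and -0.15 within the high set, neither of them called. The other 7 genes lay between -0.06 and 0.06, and for each the interval included 0. *Sox10* was 10.3 and 11.1 CPM in the 2 low libraries and 14.1, 14.8, 11.1, 13.3 and 14.2 CPM in the 5 high ones, so 1 high library lay among the low ones. Against WT libraries of the same set its log2 fold change was -0.22 among low and 0.12 among high libraries, neither of them called. The other 6 genes lay between -0.13 and 0.20 among low and between -0.14 and 0.13 among high libraries, none of them called, and the difference between the sets was not tested. In these fits 47 and 278 of the 30552 genes were called.

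**Figure D3:**
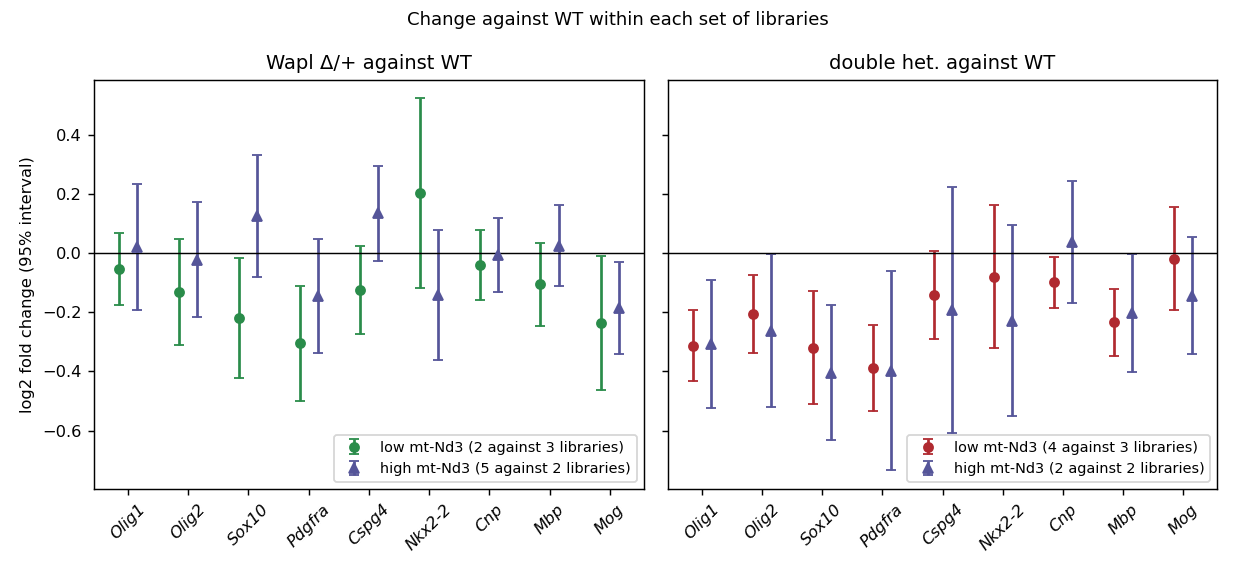
Log2 fold changes of the 9 genes against WT within the libraries with low *mt-Nd3* counts (circles) and with high counts (triangles), for *Wapl* Δ/+ and double-heterozygote (double het.) brains; bars are 95% intervals. Among others, *Sox10*, *Cspg4* and *Nkx2-2* lie on opposite sides of zero in the *Wapl* Δ/+ sets, and *Olig1*, *Olig2*, *Sox10*, *Pdgfra* and *Mbp* lie below zero in both double-heterozygote sets.

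In double heterozygotes 5 of the 9 genes fell against WT and 0 rose: *Olig1*, *Pdgfra*, *Sox10*, *Mbp* and *Olig2*. For all 5 each of the 6 double-heterozygote libraries lay below each WT library. By the same rules 3.28% of all tested genes were called, 2.46% were called lower, and 1.83% were lower in every library without overlap. Among the 13102 genes at or above the level of the lowest of the 9, 4.83% were called lower. All 9 log2 fold changes were below zero, with a median of -0.22 against 0.00 for all tested genes. This comparison and the one of *Nipbl* +/− brains share their WT libraries.

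*Olig1* ranged from 45.7 to 55.4 CPM with a median of 48.5 in double heterozygotes, below the lowest WT library at 58.0 CPM, and its log2 fold change was -0.31 (SE 0.0505, adjusted P = 0.00275, edgeR). *Olig2*, which lies beside *Olig1* on chromosome 16, ranged from 17.1 to 20.5 CPM with a median of 19.4, just below the lowest WT library at 20.8 CPM. Its log2 fold change was -0.22 (SE 0.0562, adjusted P = 0.0476, edgeR). Without WT replicate 1 the *Olig2* adjusted P was 0.146, without WT replicate 3 it was 0.117, without WT replicate 4 it was 0.147 and without double-heterozygote replicate 4 it was 0.118 (all edgeR), so the *Olig2* call rests on each of these libraries. *Sox10* ranged from 8.27 to 10.7 CPM with a median of 9.72, and its log2 fold change was -0.35 (SE 0.0681, adjusted P = 0.0105, edgeR).

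*Pdgfra* ranged from 51.7 to 69.2 CPM in double heterozygotes with a median of 57.3, against 73.9 to 83.8 CPM in WT. Its log2 fold change was -0.40 (SE 0.0710, adjusted P = 0.00594, edgeR), and the mean was 76.2% of WT. *Mbp* ranged from 33.7 to 39.2 CPM with a median of 37.3, below the lowest WT library at 41.3 CPM, with a log2 fold change of -0.22 (SE 0.0439, adjusted P = 0.0106, edgeR). The calls of *Olig1*, *Sox10*, *Pdgfra* and *Mbp* held when any 1 library was left out.

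The other 4 genes did not pass the test in double heterozygotes. *Cspg4* was 30.8 ± 4.29 CPM (SD, n = 6), with a 95% interval of the log2 fold change from -0.32 to 0.00. *Nkx2-2* was 5.32 ± 0.346 CPM (SD, n = 6), with an interval from -0.33 to 0.04. Both lay within or below the WT range. *Cnp* was 54.4 ± 3.38 CPM (SD, n = 6), with an interval from -0.14 to 0.04, and *Mog* was 19.7 ± 2.47 CPM (SD, n = 6), with an interval from -0.20 to 0.09. Of the 6 libraries, 5 were below every WT library for *Cnp* and replicate 5 was above them all at 61.3 CPM, and without replicate 5 *Cnp* was called at -0.09 (edgeR adjusted P = 0.0950). In that fit 8.2% of all tested genes were called, against 3.28% in the main test.

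Within the sets these 5 genes kept similar sizes. In the low *mt-Nd3* set (4 double-heterozygote and 3 WT libraries) *Olig1* was at -0.31, *Pdgfra* at -0.39 and *Mbp* at -0.23, all called, while *Sox10* at -0.32 (adjusted P = 0.107) and *Olig2* at -0.21 (0.143) were not. In the high set (2 libraries of each) *Olig1* was at -0.31, *Olig2* at -0.26, *Sox10* at -0.40, *Pdgfra* at -0.40 and *Mbp* at -0.20. None of the 5 was called there (edgeR adjusted P = 0.814 for each), and in that fit 1 gene of all those tested was. The other 4 genes lay between -0.14 and -0.02 in the low set and between -0.23 and 0.04 in the high set.

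The question of the double heterozygotes was whether the loss of 1 *Wapl* copy changes the expression seen with the *Nipbl* deletion alone. Of the 9 genes 0 differed between double heterozygotes and *Nipbl* +/− brains by edgeR, 0 did by DESeq2 and 0 had an unadjusted P below 0.05. Among all tested genes 0.00655% were called by edgeR and 4.12% had an unadjusted P below 0.05. *Pdgfra* had the largest difference: its mean was 59.3 ± 7.87 CPM (SD, n = 6) in double heterozygotes and 52.6 ± 6.80 (SD, n = 3) in *Nipbl* +/− brains, a log2 fold change of 0.19 with a 95% interval from -0.03 to 0.41 (edgeR adjusted P = 0.971). The ranges overlap, with 3 of the 6 double-heterozygote libraries above all 3 *Nipbl* +/− libraries. The other 8 genes lay between -0.09 and 0.03, with intervals that reached no further than -0.27 and 0.23. Within the low *mt-Nd3* set, which holds all 3 *Nipbl* +/− libraries, *Pdgfra* was at 0.17 and the other 8 genes lay between -0.07 and 0.05.

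The interaction of the genotypes, which asks whether the effect of the *Nipbl* deletion depends on the *Wapl* genotype, was fitted on all 21 libraries. By edgeR 0 of the 9 genes and 0% of all tested genes were called, with 1 of the 9 and 13.8% of all tested genes at an unadjusted P below 0.05. DESeq2 called 0 of the 9 and 2.6% of all tested genes (793). The 1 gene of the 9 with such a P was *Pdgfra*, for which the term was 0.34 (SE 0.136, 95% interval from 0.06 to 0.61, adjusted P = 0.265 in edgeR). In the separate fits of pairs of groups, *Pdgfra* changed with the *Nipbl* deletion by -0.60 beside intact *Wapl* and by -0.22 beside the *Wapl* deletion. These fits use other libraries than the term, so their difference need not equal it. The term was 0.51 when the libraries labelled with the *Wapl* deletion second were left out (edgeR adjusted P = 0.122), a fit with 2 *Wapl* Δ/+ libraries. Beside the *Wapl* deletion *Pdgfra* changed with the *Nipbl* deletion by -0.09 in the low *mt-Nd3* set and by -0.26 in the high set. For the other 8 genes the interval of the term included 0.

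Double heterozygotes and *Wapl* Δ/+ brains differ in the *Nipbl* deletion. Of the 9 genes 3 were lower in double heterozygotes, *Olig1*, *Sox10* and *Mbp*, while 1.02% of all tested genes were called and 0.812% were called lower. *Olig1* had a log2 fold change of -0.30 (SE 0.0660, adjusted P = 0.0417, edgeR), with 5 of 6 double-heterozygote libraries below all 7 *Wapl* Δ/+ libraries. The call was lost without double-heterozygote replicate 1 (adjusted P = 0.120) or 4 (0.106). For *Sox10* the value was -0.38 (SE 0.0896, adjusted P = 0.0570, edgeR), and the call was lost without *Wapl* Δ/+ replicate 3 (0.141), 4 (0.122), 6 (0.128) or 7 (0.115) or double-heterozygote replicate 1 (0.158). *Mbp* was at -0.21 (SE 0.0506, adjusted P = 0.0709, edgeR), and its call was lost without *Wapl* Δ/+ replicate 3 (0.171), 4 (0.118), 6 (0.146) or 7 (0.121) or double-heterozygote replicate 2 (0.175) or 4 (0.157).

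The differences within the sets were not tested against each other. *Sox10* differed by -0.10 between double heterozygotes and *Wapl* Δ/+ brains among low libraries and by -0.54 among high ones, *Mbp* by -0.13 and -0.24, and *Olig1* by -0.26 and -0.34, and 0 of the 9 genes were called by edgeR in either set, where 24 and 29 of the 30552 genes were called. *Olig2* (-0.16), *Pdgfra* (-0.22), *Cspg4* (-0.22) and *Mog* (0.17) had intervals that left out 0 in the whole comparison but did not pass the test (edgeR adjusted P between 0.313 and 0.474). Among low and high libraries *Olig2* was at -0.08 and -0.25, *Pdgfra* at -0.09 and -0.26, *Cspg4* at -0.02 and -0.34 and *Mog* at 0.21 and 0.03.

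*Nipbl* +/− and *Wapl* Δ/+ brains were also compared directly, since a call in one mutant and not in the other does not show that they differ. By edgeR 0 of the 9 genes and 1.16% of all tested genes were called, with 6 of the 9 and 10.3% of all tested genes at an unadjusted P below 0.05, and DESeq2 called 1 of the 9 and 2.12% of all tested genes. *Pdgfra* was lower in *Nipbl* +/− brains by -0.42 on the log2 scale (95% interval from -0.64 to -0.19, edgeR adjusted P = 0.104), and it was the 1 gene that DESeq2 called (adjusted P = 0.0184). Without *Wapl* Δ/+ replicate 1 (0.0166) or 5 (0.0610) or *Nipbl* +/− replicate 2 (0.0529) edgeR called it too. *Olig1* (-0.24), *Sox10* (-0.37), *Cspg4* (-0.20) and *Mbp* (-0.19) were also lower and *Mog* (0.18) higher with intervals that left out 0, and none passed the test (edgeR adjusted P between 0.257 and 0.458). All 3 *Nipbl* +/− libraries are in the low *mt-Nd3* set, with 2 of the 7 *Wapl* Δ/+ libraries. Within it *Pdgfra* was at -0.26 (95% interval from -0.55 to 0.02, edgeR adjusted P = 0.955), *Olig1* at -0.21, *Sox10* at -0.11, *Cspg4* at -0.02, *Mbp* at -0.10 and *Mog* at 0.16. Of the 6 intervals only that of *Olig1* (from -0.39 to -0.02) left out 0, and 8 of all tested genes were called.

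The spread within groups was compared gene by gene as the correlation of the deviations of log2 CPM from the group means over the 21 libraries, against 17302 other genes that averaged 1 CPM or more. For *Olig2* the most similar genes were *Zdhhc22* (r = 0.883), *Epn2* (0.803) and *Olig1* (0.800). *Olig1* and *Olig2* are neighbours on chromosome 16, at chr16:91269769-91271939 and chr16:91225550-91228677 of GRCm38.p6, with 41091 bp between them. For *Pdgfra* they were *Slc4a4* (0.948), *Cntn1* (0.945) and the astrocyte water channel *Aqp4* (0.944), and no other lineage gene came above *Olig1* at 0.690.

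For *Sox10* the most similar genes were *Sdr42e1* (r = 0.869), *Itga7* (0.868) and *Epb41l3* (0.852), and the highest lineage gene was *Pdgfra* at 0.622. For *Mbp* they were *Arhgef15* (0.862), *Gk* (0.818) and *Ppp1r3e* (0.802), and the highest lineage gene was *Cspg4* at 0.537. For *Mog* r was 0.399 with *Pdgfra*, 0.215 with *Sox10*, -0.133 with *Mbp* and -0.162 with *Olig2*. These values are descriptions over libraries that share depth and set, without a test.

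The remaining genes lie apart in the genome. *Sox10* lies at chr15:79154913-79164490 of GRCm38.p6, on the chromosome of *Nipbl* and 70689598 bp from it. *Pdgfra* lies at chr5:75151322-75198206, *Cspg4* at chr9:56865104-56899870, *Nkx2-2* at chr2:147176485-147195434, *Cnp* at chr11:100574909-100591875, *Mbp* at chr18:82475091-82585637 and *Mog* at chr17:37010740-37023398. *Olig2* overlaps the predicted gene Gm52261, *Nkx2-2* overlaps the antisense gene *Nkx2-2os* and 6430503K07Rik, and *Cnp* overlaps *Dnajc7*. *Pdgfra* overlaps *Mir7025*, and *Mbp* overlaps *Rpl21-ps8* and Gm52337. Reads of these genes may be shared, depending on how counting treated strand and overlaps, which is not given in the sources used here.

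Other genes of the lineage were read from lists of known markers and regulators. Of 20 further genes of specification and the precursor state, 7 fell and 1 rose in *Nipbl* +/− brains, 2 fell in *Wapl* Δ/+ brains and 6 fell in double heterozygotes, with list medians of -0.16, -0.04 and -0.10. In these groups 11.2%, 2.22% and 3.28% of all tested genes were called, and 6.96%, 1.45% and 2.46% were called lower. *Tnr*, which encodes tenascin-R of the extracellular matrix, had the smallest P in *Nipbl* +/− brains: its mean was 67.2 CPM in WT and 47.4 CPM in the mutants, a log2 fold change of -0.53 (SE 0.0703, adjusted P = 0.000186, edgeR). *Ptprz1*, a receptor phosphatase of precursors and of radial glia, was at -0.37, the RNA-binding protein gene *Qk* at -0.22 and the versican gene *Vcan* at -0.27, each with all 3 mutant libraries below every WT library. *Nkx6-1*, a progenitor patterning factor, was the gene that rose, at 0.40 (adjusted P = 0.0952, edgeR), and it was called in 1 of 8 fits that left out a library.

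*Gpr17*, a receptor of the stage between precursor and oligodendrocyte, was 32.6 CPM in WT, 23.2 CPM in *Nipbl* +/− and 23.2 CPM in double-heterozygote brains, with log2 fold changes of -0.52 and -0.49 (edgeR adjusted P of 0.00577 and 0.00275). In double heterozygotes all 6 libraries were below every WT library for *Gpr17*, *Tnr* (-0.35), *Vcan* (-0.18) and *Neu4*. *Neu4* had 0 to 14 counts in a library, so its fold change is not given. The calls of the other 2 of the 6 were lost in 5 and 7 of the 11 fits that left out a library, and the list had 3 calls without WT replicate 4 or with the replicate number as a block, 4 in the low *mt-Nd3* set and 0 in the high set. In *Wapl* Δ/+ brains the genes that fell were *Ptprz1* (-0.24) and *Tnr* (-0.20), and leaving out 1 library ended the call in 6 and 8 of the 12 fits.

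Of 20 genes of differentiation, 2 fell and 4 rose in *Nipbl* +/− brains, 3 fell in *Wapl* Δ/+ brains and 1 fell in double heterozygotes, with list medians between -0.04 and 0.00. Of all tested genes 11.2%, 2.22% and 3.28% were called in these groups, in either direction. *Bcas1*, a marker of early myelinating cells, fell in both groups with the *Nipbl* deletion: it was 8.76 CPM in WT, 6.54 CPM in *Nipbl* +/− and 6.37 CPM in double-heterozygote brains, with log2 fold changes of -0.45 and -0.46 (edgeR adjusted P of 0.00266 and 0.00465) and no overlap with WT. *Itpr2*, a calcium channel gene of newly formed oligodendrocytes, fell by 0.40 in *Nipbl* +/− and by 0.27 in *Wapl* Δ/+ brains, and the second call was lost in 7 of the 12 fits that left out a library. The 4 that rose in *Nipbl* +/− brains were *Sox11* (0.23), *Smarca4* (0.15), *Tcf7l2* (0.19) and *Hdac1* (0.15), which are also widely used outside the lineage. Without *Nipbl* +/− replicate 1 all 4 of these calls were lost, and that of *Hdac1* was lost in 6 of the 8 fits that left out a library, and 0 genes of the list rose within the low *mt-Nd3* set. The 2 that fell became 5 without WT replicate 3 or *Nipbl* +/− replicate 3 and 4 without *Nipbl* +/− replicate 2, and without double-heterozygote replicate 5 double heterozygotes had 4 lower and 2 higher. In this last fit 8.2% of all tested genes were called. The other 2 that fell in *Wapl* Δ/+ brains were the chromatin remodeller genes *Chd8* (-0.27) and *Chd7* (-0.24), with the calls lost without WT replicate 1, 2 or 5 for *Chd8* and also without WT replicate 4 or *Wapl* Δ/+ replicate 5 for *Chd7*.

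Of 20 further genes of myelin and the mature cell, 5 fell in *Nipbl* +/− brains, 0 were called in *Wapl* Δ/+ brains by edgeR and 2 fell in double heterozygotes, with list medians of -0.20, -0.03 and -0.05. Among all tested genes 6.96%, 1.45% and 2.46% were called lower in these groups. *Car2*, the carbonic anhydrase of oligodendrocytes, was 12.3 CPM in WT, 9.54 CPM in *Nipbl* +/− and 9.78 CPM in double-heterozygote brains, with log2 fold changes of -0.39 and -0.33 (edgeR adjusted P of 0.00452 and 0.0241). *Mobp*, called lower in both, rests on the 1 to 18 counts given above. *Tspan2* (-0.23) and *Omg* (-0.43) were also called in *Nipbl* +/− brains, and each call was lost without WT replicate 1 or *Nipbl* +/− replicate 1 or 3. The 5 calls became 3 without WT replicate 1, 2 without *Nipbl* +/− replicate 3 and 1 without *Nipbl* +/− replicate 1, and also 1 within the low *mt-Nd3* set, with an *mt-Nd3* term, with the replicate number as a block and with all 4 groups in one fit. In *Wapl* Δ/+ brains 2 genes of this list had an unadjusted P below 0.05 and DESeq2 called 1, which was higher.

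Signals that reach the lineage were mixed. Of 23 genes of ligands, receptors and their pathways, 6 fell and 4 rose in *Nipbl* +/− brains, 0 were called in *Wapl* Δ/+ brains by edgeR (10 at an unadjusted P below 0.05) and 2 by DESeq2, 1 in each direction, and 2 fell in double heterozygotes. The share of all tested genes called by edgeR was 11.2%, 2.22% and 3.28% in these groups. In *Wapl* Δ/+ brains 15.6% of all tested genes had an unadjusted P below 0.05. *Pdgfa*, the ligand of PDGFRA, was 25.9 CPM in WT, 22.5 CPM in *Nipbl* +/− and 22.6 CPM in double-heterozygote brains, with log2 fold changes of -0.23 and -0.20 (edgeR adjusted P of 0.0820 and 0.0609), and each call was lost in 5 fits that left out a library. *Pdgfc*, which encodes another ligand of that receptor, was at -0.42 in *Nipbl* +/− and -0.24 in double-heterozygote brains. *Igf1*, a survival and growth factor for the lineage, fell by 0.53 in *Nipbl* +/− brains (adjusted P = 0.00112, edgeR), and the lysophosphatidic acid receptor gene *Lpar1* by 0.23. *Adgrg1* (0.20), a receptor that keeps precursors dividing, *Smo* (0.21) and *Gli1* (0.26), of the hedgehog pathway, and *Fgfr3* (0.12) rose there. The call was lost without *Nipbl* +/− replicate 1 for *Smo*, without *Nipbl* +/− replicate 3 for *Lpar1*, and in 4 of the 8 fits that left out a library for *Gli1* and for *Fgfr3*, while that of *Pdgfc* in double heterozygotes was lost in 7 of 11 fits. The *Nipbl* +/− counts became 3 lower and 2 higher without *Nipbl* +/− replicate 1, 4 and 2 without replicate 3, 5 and 7 without replicate 2, 3 and 3 without WT replicate 1, and 2 and 2 within the low *mt-Nd3* set.

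Of 15 genes that hold the lineage back, 3 rose and 2 fell in *Nipbl* +/− brains, 1 rose in *Wapl* Δ/+ brains and 1 fell in double heterozygotes. In these groups 11.2%, 2.22% and 3.28% of all tested genes were called, and the list was not tested against them. *Notch1*, whose signal delays differentiation, was 98.5 CPM in WT and 127 CPM in *Nipbl* +/− brains, a log2 fold change of 0.33 (SE 0.0524, adjusted P = 0.000771, edgeR). *Axin2*, a target of Wnt signalling, rose by 0.17 in *Nipbl* +/− and by 0.16 in *Wapl* Δ/+ brains, the second call being lost without WT replicate 1, 2 or 5, and *Lef1* rose by 0.23 in *Nipbl* +/− brains, a call lost without WT replicate 2 or *Nipbl* +/− replicate 1 or 3. *Sema3a*, which repels migrating precursors, fell by 0.29 in *Nipbl* +/− and by 0.15 in double-heterozygote brains (the second call was lost in 8 of 11 fits that left out a library), and *Id2* fell by 0.22 in *Nipbl* +/− brains. Between double heterozygotes and *Nipbl* +/− brains 0 genes of any of these lists were called by edgeR or DESeq2, and at most 2 of a list had an unadjusted P below 0.05.

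**Figure D4:**
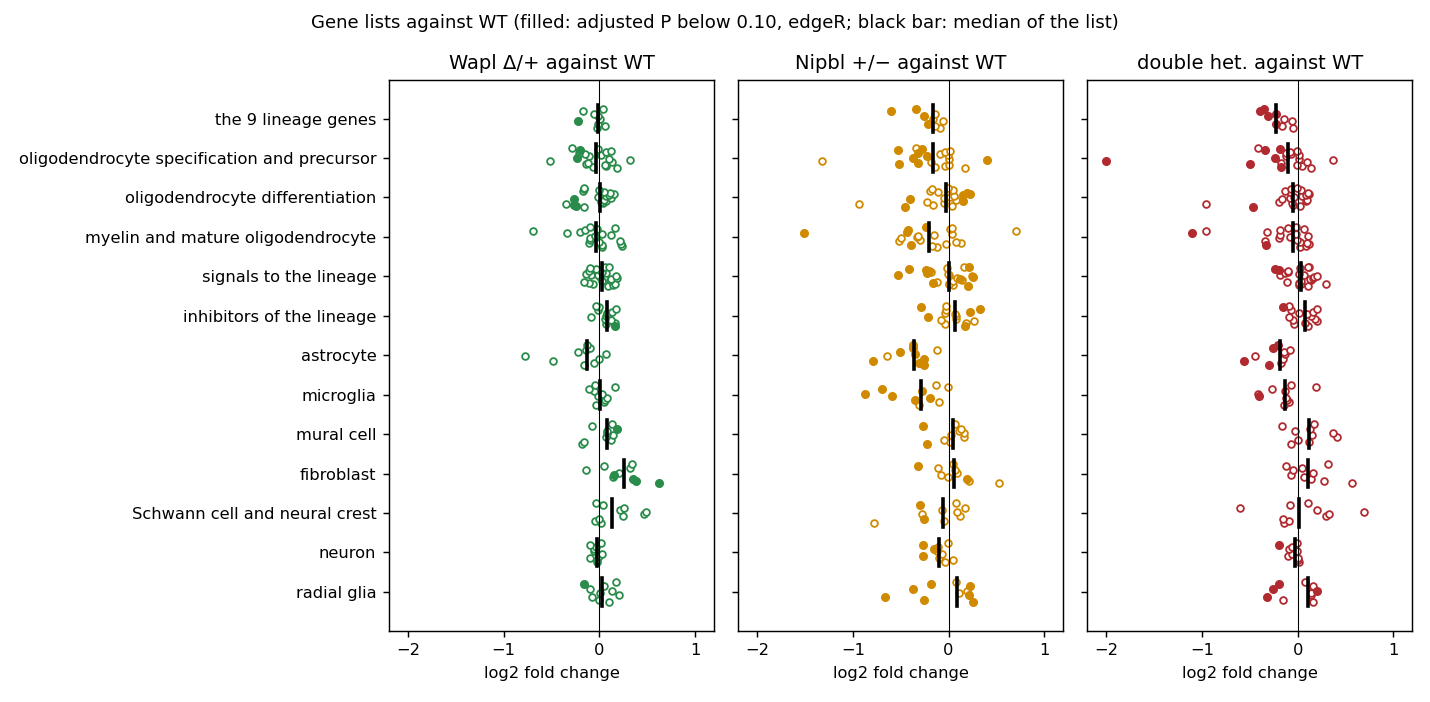
Log2 fold changes against WT of the genes of each list in *Wapl* Δ/+, *Nipbl* +/− and double-heterozygote (double het.) brains; each point is a gene, filled where the edgeR adjusted P is below 0.10, and the black bar is the median of the list. In *Nipbl* +/− brains the median is -0.16 for the 9 lineage genes, -0.16 for the further precursor genes and -0.36 for the astrocyte markers.

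Some of the 9 genes are also used by other cells: *Pdgfra* by fibroblasts, *Cspg4* by mural cells of vessels and *Sox10* by Schwann and neural crest cells. Markers of astrocytes, which arise from the same ventricular zones, also fell against WT, 8 of 10 in *Nipbl* +/− brains and 4 of 10 in double heterozygotes. The share of all tested genes called lower was 6.96% and 2.46% in these groups. *Slc1a3* was at -0.37 and -0.26 and *Aqp4* at -0.79 and -0.56. In *Wapl* Δ/+ brains against WT the median log2 fold change was -0.13 for these markers and -0.02 for the 9 lineage genes. Between double heterozygotes and *Nipbl* +/− brains it was 0.14 for the markers and -0.02 for the lineage genes. Of the 4 calls in double heterozygotes that of *Sparcl1* was lost in 9 of 11 fits that left out a library. In *Wapl* Δ/+ brains 0 of the 10 were called by edgeR and 2 by DESeq2, with 5 at an unadjusted P below 0.05. Their summed level was 1549 to 1684 CPM in WT, 1342 to 1737 in *Wapl* Δ/+, 1184 to 1479 in *Nipbl* +/− and 1265 to 1581 in double-heterozygote libraries, beside 325 to 343, 298 to 369, 266 to 315 and 269 to 307 CPM for the 9 lineage genes. The part of astrocyte RNA in the results was not tested.

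Markers of fibroblasts stood at 1 higher and 1 lower of 10 in *Nipbl* +/− brains and 0 of 10 called in double heterozygotes by edgeR or DESeq2 (1 at an unadjusted P below 0.05), the groups in which *Pdgfra* fell, and 4 of 10 rose in *Wapl* Δ/+ brains, with *Col3a1* at 0.35. All 4 calls were lost without WT replicate 1 or 2, and those of *Col1a1* and *Col1a2* in 9 of the 12 fits that left out a library. Their summed level was 615 to 793 CPM in WT, 691 to 1144 in *Wapl* Δ/+, 645 to 957 in *Nipbl* +/− and 528 to 1080 in double-heterozygote libraries. Of 10 mural markers, 2 fell in *Nipbl* +/− brains, *Rgs5* (-0.27) and *Abcc9* (-0.23, lost in 6 of 8 fits that left out a library), 1 rose in *Wapl* Δ/+ brains, *Pdgfrb* (0.19, lost without WT replicate 1, 2 or 5), and 0 were called in double heterozygotes by edgeR and 2 by DESeq2, with 4 at an unadjusted P below 0.05. Of 10 Schwann and neural crest markers, 2 fell in *Nipbl* +/− brains, *Fabp7* (-0.26), which is also on the astrocyte list, and *Pmp22* (-0.30), and 0 were called in the other mutants by edgeR (1 at an unadjusted P below 0.05 in each, 1 called by DESeq2 in double heterozygotes), while 4 of the 10 averaged below 1 CPM. Among all tested genes 11.2% were called in *Nipbl* +/− brains, 2.22% in *Wapl* Δ/+ brains and 3.28% in double heterozygotes. The part of fibroblasts, mural cells and Schwann and neural crest cells in the results was not tested.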

How the data were processed

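Raw counts per gene for 21 libraries were deposited by the authors, without normalization. According to the submitters' processing notes, reads were trimmed with cutadapt 2.4, mapped with STAR 2.5.3a to mm10 (GRCm38.p6) and counted with featureCounts of Subread 1.6.4, with MultiQC 1.9 for quality. The annotation, the strand setting and how reads on more than 1 gene were handled are not given in the sources used here. A further *Nipbl* +/− library that the study excluded was not analysed here.

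Groups were taken from the sample labels. The quasi-likelihood test of edgeR 4.0.16 was run in R 4.3.3 after TMM normalization. A gene was tested if its normalized counts summed to 10 or more across all libraries, P values were adjusted by the Benjamini-Hochberg method over all of them, and 0.10 was the threshold. The fit of a pair of groups used the libraries of that pair, and the interaction used all 4 groups. The code was tested on simulated counts.

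The genes named are the 9 lineage genes, *Wapl*, *Nipbl*, *mt-Nd3*, up to 4 called genes of smallest P per list, comparison and direction, defining markers of the lists, and the 3 genes most similar to *Olig2*, *Pdgfra*, *Sox10* and *Mbp*. A gene named in one comparison may be given in another. The genes and lists (precursor, differentiation, myelin, signals, inhibitors, astrocyte, microglia, mural cell, fibroblast, Schwann cell and neural crest, neuron and radial glia) were chosen with earlier results of these data known. Alternatives were DESeq2 1.42.0, its size factors in edgeR, no filter, edgeR's filterByExpr, a threshold of 0.05, all 4 groups in one fit, the replicate number as a block, an *mt-Nd3* term, each *mt-Nd3* set (divided at 20 counts), each order of writing the *Wapl* deletion, and leaving out each library. Gene positions came from a RefSeq table of GRCm38.p6. No 2 of the 210 pairs of columns were identical.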

Additional observations from a re-analysis of the deposited data

Results flagged for a closer look

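Of 27 sets of values (9 genes in the groups of 4 or more libraries), 3 held a library that stood far from the rest by Dixon's test, where chance flags about 1 set in 20. *Olig1* was 76.2 CPM in *Wapl* Δ/+ replicate 7, with the next library at 62.4 CPM. *Cnp* was 62.0 CPM in the same library, with the next at 56.5 CPM. *Cnp* was 61.3 CPM in double-heterozygote replicate 5, with the next at 53.8 CPM.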

How the results depend on the processing

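Of 34 log2 fold changes (all 9 genes in both *Nipbl*-deleted groups against WT, and elsewhere those with a 95% interval that left out 0), 705 refits kept direction and side of the threshold in 619, lost the call in 65, gained it in 17 and changed sign in 4. The sign changes were of uncalled values: *Cnp* in double heterozygotes against WT (0.0368 in the high *mt-Nd3* set, 0.0311 with the deletion written second), *Mog* there with the deletion written first (0.0024), and *Mog* in *Nipbl* +/− brains (-0.0856 to 0.0024 as libraries were left out). The other values changed sign in 35 of 171 refits of double heterozygotes against *Nipbl* +/− brains, 23 of 161 of *Wapl* Δ/+ against WT and 28 of 232 of the interaction.

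Numbers of the 9 genes called changed as follows. Against WT, *Nipbl* +/− brains had 4 in the main test, 1 with all 4 groups in one fit (*Pdgfra*, while *Olig1*, *Sox10* and *Mbp* lost their calls) and 3 to 7 as libraries were left out. With all 4 groups in one fit 5.43% of all tested genes were called, and 5.98% to 15.7% were as libraries were left out. *Wapl* Δ/+ brains had 1 in the main test, 0 at a threshold of 0.05, with all 4 groups in one fit, with a term for the *mt-Nd3* set and within the low or the high set, and 0 to 1 as libraries were left out. Of all tested genes 0.0229% were called with all 4 groups in one fit and 0.998% with the *mt-Nd3* term. Within the low and the high set the share was 0.154% and 0.91%, and as libraries were left out it ran from 0.0295% to 5.02%. Double heterozygotes had 5 in the main test, 3 in the low set, 0 in the high set, 3 with the deletion written second and 4 to 6 as libraries were left out. Of all tested genes 2.2% were called in the low set, 0.00327% in the high set and 2.84% with the deletion written second. Against *Wapl* Δ/+ brains, double heterozygotes had 3 in the main test, 1 at a threshold of 0.05, 0 with the *mt-Nd3* term, in either set or with either order of the alleles, and 1 to 3 as libraries were left out. *Nipbl* +/− against *Wapl* Δ/+ brains had 0 in the main test, 1 with DESeq2, without a filter or with all 4 groups in one fit, 3 with the deletion written second and 0 to 2 as libraries were left out. The cause was not tested. For double heterozygotes against *Nipbl* +/− brains and for the interaction the number was 0 in each refit.

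The labels give a replicate number without saying that it pairs libraries. Correlations of same-numbered libraries ran from -0.206 to 0.366, and at most 1 in a comparison correlated best with its own number. With 3 to 6 such pairs in a comparison these values cannot exclude a pairing. With the number as a replicate block, 2 genes were called in *Wapl* Δ/+ against WT (*Mog* and *Pdgfra*, the latter at -0.26), 1 in *Nipbl* +/− against *Wapl* Δ/+ brains and 4 in double heterozygotes against WT, where *Olig2* lost its call. Of all tested genes 6.52%, 0.763% and 1.75% were called in these fits.

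Over all tested genes, calls against WT ran over the alternatives that kept all libraries from 1658 to 3981 for *Nipbl* +/− (main 3422), from 7 to 1991 for *Wapl* Δ/+ (main 677) and from 535 to 1480 for double heterozygotes (main 1001), and as libraries were left out from 1828 to 4788, from 9 to 1534 and from 454 to 2504. The comparisons of *Nipbl* +/− libraries within the high *mt-Nd3* set were not run, since no such library is in it. With 3 *Nipbl* +/− embryos, intervals against WT reach 0.23 to either side of a log2 fold change (*Nkx2-2*), that of *Sox10* against *Wapl* Δ/+ brains runs from -0.64 to -0.09, and counting error was at most 8.36% of a count.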

Other observations

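Microglia are the resident immune cells of the brain. Of 10 microglial markers, 6 fell in *Nipbl* +/− brains, 0 were called in *Wapl* Δ/+ brains by edgeR or DESeq2 (0 at an unadjusted P below 0.05) and 1 fell in double heterozygotes. By edgeR 6.96%, 1.45% and 2.46% of all tested genes were called lower in these groups. *Fcrls*, a marker of resident microglia, was at -0.87 in *Nipbl* +/− brains (adjusted P = 0.00033, edgeR), and the fractalkine receptor gene *Cx3cr1* was at -0.59 there and at -0.40 in double heterozygotes. The summed level of the 10 was 108 to 127 CPM in WT, 105 to 138 in *Wapl* Δ/+, 84.9 to 97.9 in *Nipbl* +/− and 92.2 to 115 in double-heterozygote libraries.

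Of 10 neuronal markers, 3 fell in *Nipbl* +/− brains, 0 were called in *Wapl* Δ/+ brains by edgeR (1 at an unadjusted P below 0.05 and 1 called by DESeq2) and 1 fell in double heterozygotes, with *Syt1*, a calcium sensor of synaptic vesicles, at -0.27 and -0.19. Of 10 radial glial markers, 4 fell and 3 rose in *Nipbl* +/− brains, 1 fell in *Wapl* Δ/+ brains (*Tnc*, -0.16, a call lost without WT replicate 1, 2 or 5), and 3 fell and 1 rose in double heterozygotes. The 4 that fell in *Nipbl* +/− brains include *Slc1a3* and *Fabp7*, which are also on the astrocyte list. Among all tested genes 11.2% were called in *Nipbl* +/− brains, 2.22% in *Wapl* Δ/+ brains and 3.28% in double heterozygotes. *Hopx*, a marker of radial glia, was at -0.67 in *Nipbl* +/− and -0.32 in double-heterozygote brains, and the transcription factor gene *Emx2* was at 0.25 in *Nipbl* +/− brains (adjusted P = 0.0170, edgeR).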
